A study of Mus musculus with 6 samples.

Results

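The genes of the BMP, TGF-beta and activin branches of the TGF-beta superfamily were followed in theca cells of the Gli1 lineage, sorted from ovaries of adult mice. The 49 genes cover ligands, receptors, SMADs, secreted antagonists, latent TGF-beta binding proteins and Id targets. Their probe sets were found by gene symbol, taking only probe sets whose platform annotation gives a single symbol. That gave 103 probe sets for 48 of the 49 genes, out of 45037 probe sets and 18193 genes in all. Bmp3 had no such probe set and is not described further. Each gene was represented by its probe set with the highest mean of log2(signal + 16) over the 6 arrays. On that log scale 42 of the 48 genes lay above a floor set at the 40th percentile of the probe set means, a level that corresponds to a signal of 99.4. The other 6, Inhbb, Amh, Grem1, Nog, Chrd and Fst, had log means below it and were not tested. With means of the linear signal instead, an alternative chosen after seeing the data, Amh was tested too and Bmpr1b took another probe set. Amh passed that floor only through its signals on mesonephros-derived replicates 1 and 2, so the counts that include it are a description. In that setting 10 of 43 genes (23.3%) reached an unadjusted p of 0.05, against 13.6% of all genes. The groups did not overlap for 11, and the share over all genes was not counted there.

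RNA was measured on 6 one-colour oligonucleotide arrays of ovarian cells from female Gli1-CreERT2; Rosa-LSL-tdTomato mice of strain 129S6/SvEvTac, 2 months old, after fluorescence sorting on tdTomato, with the samples named as labelled theca cells. The same volume of RNA was amplified whatever its concentration. In these mice tamoxifen activates a Cre that the Gli1 promoter drives, and cells in which Cre acts, with their descendants, keep the red tdTomato label. The 3 samples named mesonephros-derived theca were labelled in the fetus, by tamoxifen given at E12.5 and again on E14.5 and on E16.5. The 3 samples named ovary-derived theca were labelled on postnatal days 1 to 3, with tamoxifen reaching the pups through the nursing dam. Both groups carry the same alleles and received tamoxifen. They differ in the time of tamoxifen as well as in their named origin, and these cannot be told apart. The labels do not say how many animals went into a sample or whether each had its own animals. The p-values therefore describe only how these samples vary, and that variation may be technical.

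Ligands of this family bind pairs of type I and type II serine-threonine kinase receptors, which phosphorylate SMAD proteins. BMP receptors act through SMAD1 and SMAD5, TGF-beta and activin receptors through SMAD2 and SMAD3, and both sets join SMAD4 to enter the nucleus. In the ovary BMPs, activins, inhibins and anti-Müllerian hormone pass signals between the oocyte, the granulosa cells and the theca, the steroid-producing and contractile layer around the follicle, and BMPs are known to restrain androgen synthesis by theca cells.

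The arrays were not equally noisy. Over all probe sets except controls, the mesonephros-derived arrays correlated with each other at 0.844 to 0.896 and the ovary-derived arrays at 0.963 to 0.973. Against the ovary-derived arrays, mesonephros-derived replicates 1 and 2 stood at 0.871 to 0.893 and replicate 3 at 0.946 to 0.950. Poly-A spike controls are added before amplification. On the mesonephros-derived arrays they read 2.47 to 13.0 times the ovary-derived mean. On the ovary-derived arrays they read 0.711 to 1.61 times that mean. These ranges do not overlap, so a fit that includes the spikes can hardly separate them from the group. Gapdh probe sets at the 3′ and 5′ ends, whose ratio reflects RNA integrity, gave ratios of 2.63 to 5.29 on mesonephros-derived arrays and of 1.94 to 2.86 on ovary-derived arrays. Among the genes followed here, the SD of log2(signal + 16) was larger within the mesonephros-derived group for 36 of 42 (85.7%), against 83.1% of all genes tested.

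Marker genes were read beside the members. Of 12 tested theca markers 6 stood above and 6 below 0. Cyp17a1, an enzyme needed to make androgens, read 3346, 10577 and 8689 in mesonephros-derived cells, against 1413, 1304 and 619 in ovary-derived cells. Relative to the ovary-derived mean, the theca list stood at 0.08, 0.59 and 0.52 log2 units on the 3 mesonephros-derived arrays, with summed signals of 63407 to 77905 on the mesonephros-derived arrays and 47859 to 51963 on the ovary-derived arrays. All 17 smooth muscle and pericyte markers stood above 0, 2 of them past the adjusted threshold (Myh11, a smooth muscle myosin, limma adjusted p = 0.0277, and Tagln), with summed signals of 113606 to 142622 on the mesonephros-derived arrays and 56440.2 to 68040.3 on the ovary-derived arrays. Of 16 tested endothelial markers 11 stood below and 5 above 0. At an unadjusted p of 0.05, 4 (25%) were lower, against 7.22% of all genes. Sox18, Robo4 and Kdr had the smallest p, at −1.52, −1.73 and −2.89, and none passed the adjusted threshold. Summed endothelial signals were 9799.6 to 15619 on the mesonephros-derived arrays and 11003 to 18059 on the ovary-derived arrays. All 12 tested macrophage markers stood below 0, with summed signals of 1713 to 21343 on the mesonephros-derived arrays and 8045 to 13178 on the ovary-derived arrays. The macrophage list stood at −2.90, 0.79 and −0.62 log2 units from the ovary-derived mean on the 3 mesonephros-derived arrays. Only 3 of the 12 (25%) were lower without overlap, against 12.6% of all genes, and Csf1r was 1 of these. Csf1r, the receptor that defines macrophages, read 2.81, 615 and 461 in mesonephros-derived cells, against 1300.2, 1583 and 1059.9 in ovary-derived cells. Of 15 granulosa markers 8 were tested, 4 above and 4 below 0, and 3 of the 8 (Inha, Inhba and Amhr2) belong to the genes described here. The granulosa list summed to 19220.3 to 21935 on the mesonephros-derived arrays and 18219.7 to 19954 on the ovary-derived arrays. Fshr, the follicle-stimulating hormone receptor that defines granulosa cells, read 26.1, 29.0 and 6.02 in mesonephros-derived cells, against 20.4, 20.7 and 8.40 in ovary-derived cells, all below the floor, while Foxl2, a transcription factor of granulosa cells, read 3434, 4626 and 3912 in mesonephros-derived cells, against 4372, 5330.0 and 3858 in ovary-derived cells and Esr2, an estrogen receptor, 349.8, 300.3 and 464 in mesonephros-derived cells, against 466, 506 and 528 in ovary-derived cells. Of 11 oocyte markers only Sohlh1 was tested, and 0 of 10 surface epithelium and 0 of 9 measured lymphoid markers had a log mean above the floor. Of 3 tested luteal markers 2 stood above 0. For 1 of these, Cited4, every ovary-derived array was below the floor. Cited4 passed it only through mesonephros-derived replicates 1 and 2, so its side of 0 is a description. The 1 tested erythroid gene, Alas2, stood at −0.55. The part of these other cell types in the results below was not tested.

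**Figure D1:**
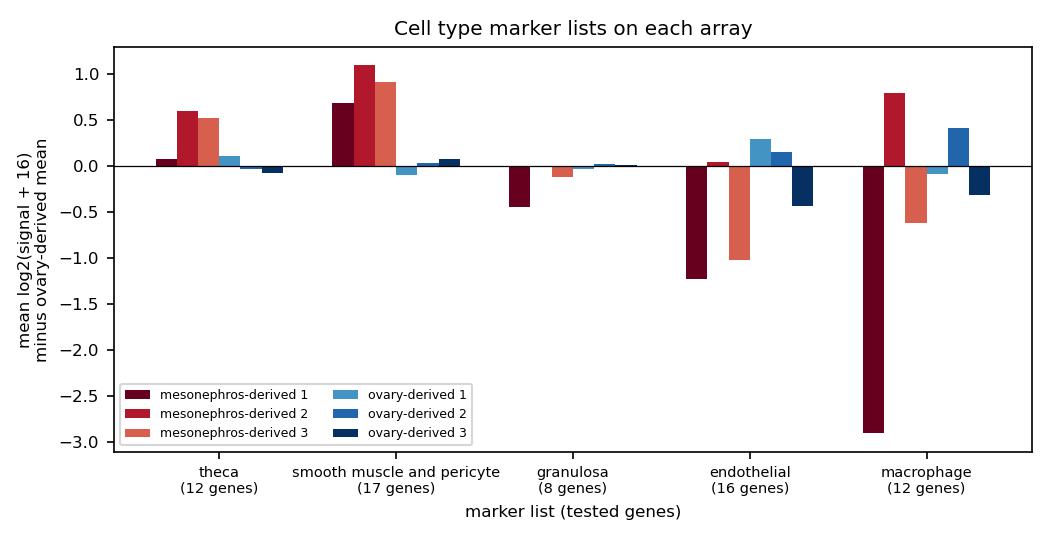
Mean log2(signal + 16) of the tested genes of each marker list on each array, minus the mean of the 3 ovary-derived arrays (y axis, log2 units); each bar is 1 array. Smooth muscle and pericyte markers stood 0.68 to 1.09 above 0 on the mesonephros-derived arrays, and the macrophage list read −2.90 on mesonephros-derived replicate 1 and 0.79 on replicate 2.

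No gene of the family passed the threshold. Of the 42 tested, 0 had a limma adjusted p of 0.05 or less, where 0.0427% of all 11703 genes did (5 genes, 0.0342% higher and 0.00854% lower). An unadjusted p of 0.05 was reached by 8 of 42 (19.0%), against 13.7% of all genes. Those 8 were Bmp2, Bmp7, Gdf10 and Smad3 on the lower side (7.22% of all genes reach it there) and Tgfbr3, Fstl1, Ltbp2 and Id2 on the higher side (6.46%). The signals of the 2 groups did not overlap for 10 of 42 (23.8%), against 22.2% of all genes: 5 were higher in mesonephros-derived cells (9.56% of all genes), namely Tgfbr3, Fstl1, Ltbp3, Ltbp4 and Id2, and 5 were lower (12.6%), namely Bmp2, Bmp7, Gdf10, Smad3 and Smad4. Of the 42, 22 stood above 0, against 43.5% of all genes, and 20 below 0, against 56.5%. The median log2 difference, mesonephros-derived minus ovary-derived, was 0.00 over the 42 genes and −0.08 over all genes tested. As the arrays hold RNA of whole samples, fewer cells of a type and less RNA per cell cannot be told apart.

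**Figure D2:**
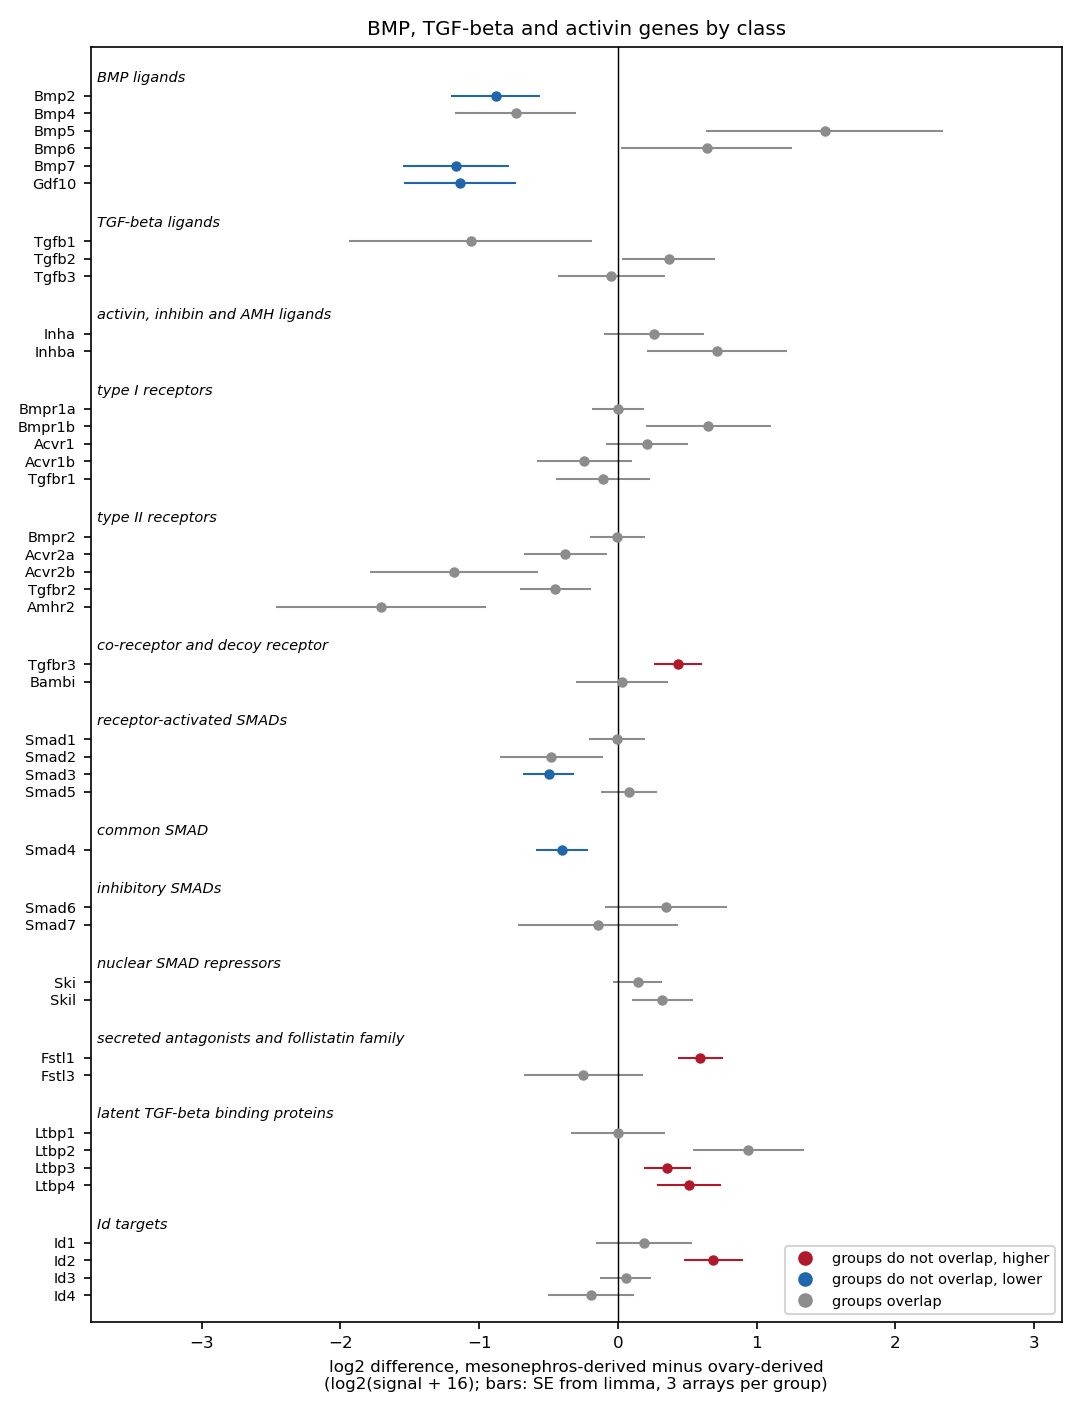
Log2 difference on the log2(signal + 16) scale, mesonephros-derived minus ovary-derived (x axis), for the 42 tested genes by class; points are estimates from limma and bars 1 SE, with 3 arrays per group. The 10 genes whose groups do not overlap are coloured: 3 BMP ligands and 2 SMADs lie on the lower side, and 2 latent binding proteins, Tgfbr3, Fstl1 and Id2 on the higher side.

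Among BMP ligands, Bmp2, Bmp7 and Gdf10 had lower signals on every mesonephros-derived array than on any ovary-derived array. Bmp2, a dimeric BMP that signals through SMAD1 and SMAD5, read 262, 189 and 245 in mesonephros-derived cells, against 518, 385 and 419 in ovary-derived cells. The highest mesonephros-derived array lay below the lowest ovary-derived one. Its log2 difference was −0.88 ± 0.32 (SE, limma adjusted p = 0.314), a signal 1.84-fold lower on the log2(signal + 16) scale, which all fold values here use. Bmp7, which rat theca cells are known to make, read 276, 171 and 124 in mesonephros-derived cells, against 487, 363 and 441 in ovary-derived cells (2.25-fold lower). Mesonephros-derived replicate 1 came nearest to the other group. The log2 difference was −1.17 ± 0.38 (limma adjusted p = 0.285), and the 2 further Bmp7 probe sets stood at −1.95 and −0.86, also without overlap. The first of these read 125, 108 and 49.8 in mesonephros-derived cells, against 448, 458 and 288 in ovary-derived cells. Gdf10, a divergent ligand also called BMP3b, read 122, 319.5 and 225 in mesonephros-derived cells, against 480.2, 393 and 569 in ovary-derived cells, with mesonephros-derived replicate 1 the lowest. It stood at −1.14 ± 0.40 (SE, limma adjusted p = 0.303).

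The other BMP ligands overlapped between the groups and varied widely among mesonephros-derived arrays. Bmp4, which rat theca cells also make, read 992, 265 and 448 in mesonephros-derived cells, against 922, 724 and 858 in ovary-derived cells. Replicate 1 lay above every ovary-derived array and replicates 2 and 3 lay below them. Its log2 difference of −0.74 ± 0.44 (SE) was −1.23 without mesonephros-derived replicate 1 and −0.31 without replicate 2. Bmp5 read 1187, 65.8 and 421 in mesonephros-derived cells, against 145, 131 and 66.0 in ovary-derived cells, so replicates 1 and 3 lay above and replicate 2 just below all of the other group. It stood at 1.49 ± 0.85, or 0.60 without replicate 1 and 2.54 without replicate 2. Further Bmp5 probe sets, with log means below the floor, stood at 0.13 with overlap and at −0.79 without overlap. Bmp6, a ligand close in sequence to BMP5 and BMP7, read 61.7, 261 and 409.9 in mesonephros-derived cells, against 101, 126 and 129.9 in ovary-derived cells, with replicates 2 and 3 above and replicate 1 below the ovary-derived arrays. Its difference was 0.64 ± 0.62, with 0.13 without replicate 3 and 1.36 without replicate 1. The ovary-derived signals of Bmp5 and Bmp6 stood close to the floor. Over the 6 tested BMP ligands 2 stood above and 4 below 0, with a median of −0.81.

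TGF-beta ligands gave no shared direction, with 1 of 3 above 0. Tgfb1, the ligand made by many cell types including macrophages, read 5.85, 314 and 153 in mesonephros-derived cells, against 225, 244 and 160.4 in ovary-derived cells. Mesonephros-derived replicate 1 was almost without signal, while replicate 2 was the highest of all 6. Its difference of −1.06 ± 0.88 (SE) turned to 0.08 without replicate 1 and to 0.12 when the poly-A spikes entered the fit as a covariate. Replicate 1 was the array on which the macrophage list stood at −2.90 log2 units. Without replicate 2, on which that list stood at 0.79, the difference was −1.88. A second Tgfb1 probe set, with a log mean below the floor, read 253, 173 and 102 in mesonephros-derived cells, against 54.5, 38.5 and 37.3 in ovary-derived cells and stood at 1.63 without overlap. Tgfb2 read 1320.4, 1079.6 and 578 in mesonephros-derived cells, against 669.7, 656 and 866 in ovary-derived cells, overlapping between the groups, at 0.37 ± 0.33, but at −0.83 under the spike covariate. Leaving out mesonephros-derived replicate 1 gave 0.12. Its 3 further probe sets ranged from −0.31 to 1.08. Tgfb3 read 4287, 1440.2 and 1564 in mesonephros-derived cells, against 1907, 2372 and 2360.1 in ovary-derived cells. Replicate 1 was the highest array and replicates 2 and 3 the lowest, which left a difference of −0.05 ± 0.38 and a 95% interval of −0.92 to 0.82. With median centring it was 0.03.

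Of the inhibin and activin subunits, Inha and Inhba lay above the floor and Inhbb below it. Inha encodes the alpha subunit, which makes a dimer an inhibin, an antagonist of activin. It read 529, 1352 and 993 in mesonephros-derived cells, against 914, 637 and 703 in ovary-derived cells, overlapping between the groups, at 0.26 ± 0.36, and stood at −0.03 without mesonephros-derived replicate 2. Inhba, the beta A subunit of activin A, read 1039, 254 and 676 in mesonephros-derived cells, against 236, 455 and 359.6 in ovary-derived cells. Mesonephros-derived replicates 1 and 3 lay above every ovary-derived array and replicate 2 within their range. Its difference was 0.72 ± 0.50, or 0.29 without replicate 1 and 1.27 without replicate 2. Inhbb, the beta B subunit, read 15.8, 7.58 and 58.7 in mesonephros-derived cells, against 117, 98.0 and 36.4 in ovary-derived cells, so that no mesonephros-derived array and only ovary-derived replicate 1 reached the floor. Amh, the hormone that granulosa cells of growing follicles make, read 511, 234 and 33.4 in mesonephros-derived cells, against 20.7, 28.1 and 34.7 in ovary-derived cells. Replicates 1 and 2 of the mesonephros-derived group stood above the floor and replicate 3 among the ovary-derived values, all of which were below it. Against the floor the mesonephros-derived mean was at least 1.62-fold higher. When means of the linear signal set the floor and Amh was tested, its limma adjusted p was 0.353. Amh passed that floor only through the signals of mesonephros-derived replicates 1 and 2, so this value is a description. Of the granulosa markers outside the family Fshr was below the floor on all 6 arrays and Nr5a2 above it only on ovary-derived replicates 1 and 2, while Foxl2, Esr2, Hsd17b1, Gja1 and Kitl were above it on all 6.

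Among type I receptors, the kinases that phosphorylate SMADs, the probe sets used overlapped between the groups for all 5, with differences of −0.24 to 0.65. Bmpr1a, a main BMP receptor, read 3235, 3850.2 and 4399.8 in mesonephros-derived cells, against 3446, 3902 and 4072 in ovary-derived cells. The groups overlapped throughout, with a difference of 0.00 ± 0.19, a 95% interval of −0.42 to 0.42 and a turn to −0.09 after quantile normalization. Of its 4 further probe sets above the floor 3 stood at −0.40, −0.41 and −0.40, the first without overlap, and 1 at 0.32. Bmpr1b, the BMP receptor whose mutation raises ovulation rate in sheep, read 301, 444 and 644 in mesonephros-derived cells, against 456, 287 and 158 in ovary-derived cells, with overlap, at 0.65 ± 0.45 (SE, limma adjusted p = 0.535). Its difference was 0.28 without ovary-derived replicate 3 and 1.00 without ovary-derived replicate 1. On its other 2 probe sets the groups did not overlap: 1 read 507, 686 and 507 in mesonephros-derived cells, against 195, 327 and 152 in ovary-derived cells and stood at 1.33, and the other stood at 1.03. The first of these has the highest mean of the linear signal, and with it as the probe set used the limma adjusted p was 0.243. All 3 Bmpr1b probe sets were thus on the higher side, and as the mean of its probe sets it stood at 1.00.

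Acvr1, a type I receptor for several BMPs, read 843, 1737 and 1163 in mesonephros-derived cells, against 870.1, 1132 and 1104 in ovary-derived cells, overlapping, at 0.21 ± 0.30, and at −0.05 without mesonephros-derived replicate 2. Its further probe sets disagreed, at 1.02 without overlap and at −0.66 with overlap. Acvr1b, the activin receptor, stood at −0.24 ± 0.34 and overlapped. Its sign was the opposite under the spike covariate, at 0.76, and with array weights, at 0.01. Tgfbr1, the TGF-beta type I receptor, read 879, 2006 and 1622 in mesonephros-derived cells, against 1827, 1764 and 1109.9 in ovary-derived cells, with mesonephros-derived replicate 1 the lowest array. It stood at −0.11 ± 0.34, or 0.24 without that array, and its other probe sets at −0.85, without overlap, and −0.42.

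All 5 type II receptors, which bind ligand and switch on the type I partner, had log2 differences at or below 0 on the probe sets used. The groups overlapped for all 5, and Bmpr2 turned to 0.08 with median centring. Amhr2, the receptor of anti-Müllerian hormone, read 36.4, 581 and 151 in mesonephros-derived cells, against 595, 407 and 689 in ovary-derived cells. Mesonephros-derived replicates 1 and 3 lay below every ovary-derived array and replicate 2 within their range. It stood at −1.71 ± 0.76 (SE, limma adjusted p = 0.365), or −0.84 without replicate 1 and −2.60 without replicate 2. Its other probe sets were at −3.09 and 0.08, both with overlap. The second of these read 61.2, 273 and 222 in mesonephros-derived cells, against 224, 106 and 137 in ovary-derived cells. The Amhr2 probe set used and the one at −3.09 both have names ending in _x_at. When probe sets ending in _x_at or _s_at were left out, Amhr2 turned sign. Acvr2b, an activin receptor, read 62.8, 273 and 437 in mesonephros-derived cells, against 345, 578 and 543 in ovary-derived cells. It was lowest on replicate 1, stood at −1.18 ± 0.61 and was −0.45 without that array and 0.23 with the spike covariate. Tgfbr2, which binds TGF-beta directly, read 2770.1, 3301 and 2207 in mesonephros-derived cells, against 4043, 4789.9 and 2673 in ovary-derived cells, at −0.45 ± 0.26. Ovary-derived replicate 3 fell inside the mesonephros-derived range, and without it the difference was −0.69. It was −0.27 without ovary-derived replicate 2. Acvr2a stood at −0.38 ± 0.30, or −0.06 without mesonephros-derived replicate 2. Bmpr2, the main type II receptor for BMPs, read 4250.1, 3025 and 3526 in mesonephros-derived cells, against 3616, 4009 and 3148 in ovary-derived cells, with a difference of 0.00 ± 0.20 and a 95% interval of −0.45 to 0.44. Its 2 further probe sets stood on the higher side, at 0.20 and 0.80, both with overlap. As the mean of its probe sets Bmpr2 stood at 0.33.

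Tgfbr3, or betaglycan, is a co-receptor that presents TGF-beta 2 to its receptors and lets inhibin block activin. It read 5465, 4609 and 4428 in mesonephros-derived cells, against 3503, 3766 and 3431 in ovary-derived cells. Every mesonephros-derived array lay above every ovary-derived array. The mean signal was 4834 ± 554 in mesonephros-derived cells, against 3567 ± 176 in ovary-derived cells (SD, n = 3 each), with a log2 difference of 0.43 ± 0.17 (SE, limma adjusted p = 0.34). Its second probe set read 4455, 4412 and 4353 in mesonephros-derived cells, against 2857, 3575 and 3073 in ovary-derived cells and stood at 0.48, again without overlap. Bambi, a decoy receptor with no kinase domain, read 903, 1175 and 508 in mesonephros-derived cells, against 725, 771 and 908 in ovary-derived cells, overlapping, at 0.03 ± 0.33. It stood at −1.11 with the spike covariate, at −0.25 with array weights and between −0.23 and 0.36 with 1 array left out.

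**Figure D3:**
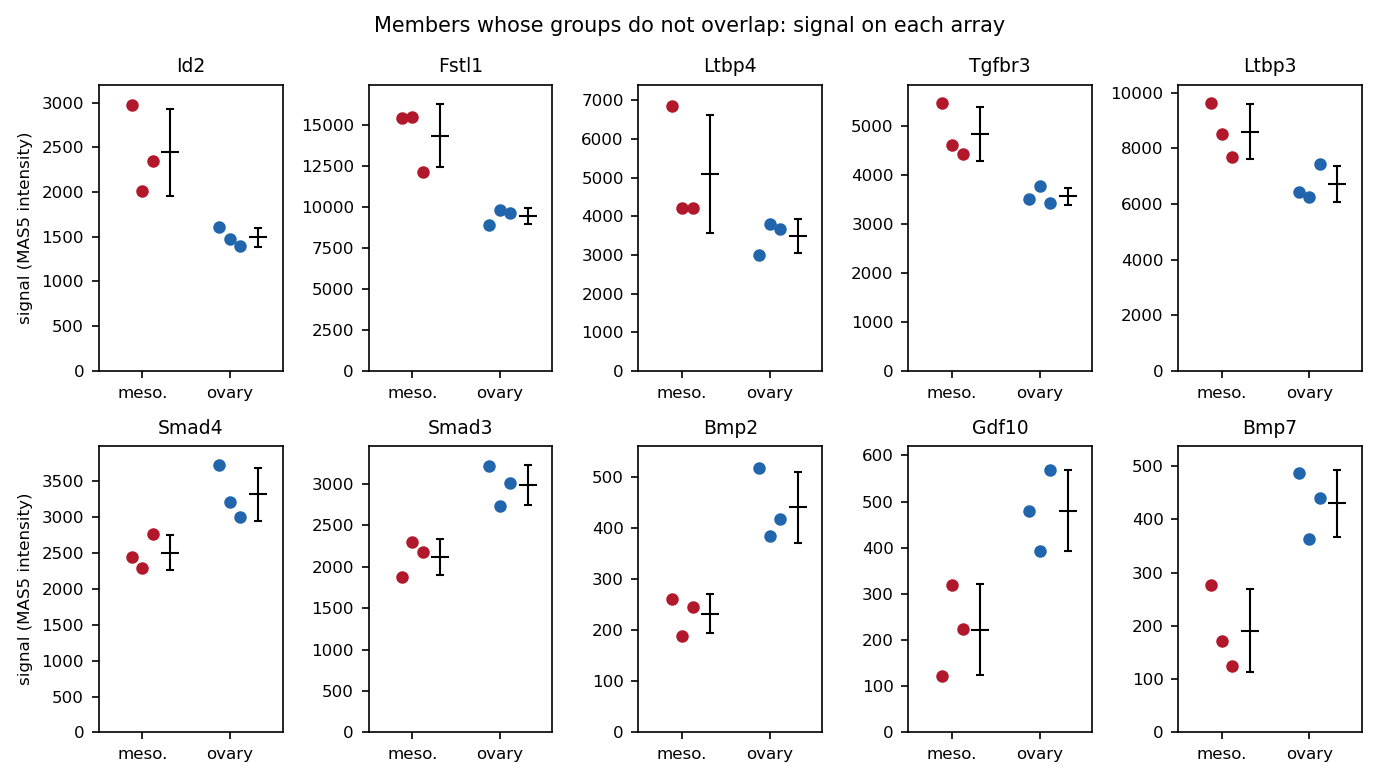
MAS5 signal (y axis, linear, from 0) on each array for the 10 genes whose groups do not overlap; mesonephros-derived arrays in red on the left, ovary-derived in blue on the right, points in the order of replicates 1 to 3, with mean ± SD (n = 3) in black beside them. The gap between the groups is wide for Fstl1, Bmp2 and Smad3 and narrow for Ltbp3, whose nearest arrays read 7679 and 7450.2.

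Among SMADs, Smad3 and Smad4 were lower on every mesonephros-derived array. Smad3, which carries TGF-beta and activin signals, read 1871, 2294 and 2174 in mesonephros-derived cells, against 3213, 2738 and 3012 in ovary-derived cells. It stood at −0.50 ± 0.18 (SE, limma adjusted p = 0.317), a signal 1.41-fold lower. Its other probe sets were at −0.95, without overlap, and at 0.04, with overlap. Smad4, the partner shared by all branches, read 2448, 2293 and 2769.9 in mesonephros-derived cells, against 3730.2, 3218 and 3007 in ovary-derived cells. It stood at −0.40 ± 0.18 (limma adjusted p = 0.377), its other probe sets at −0.67 and −0.32, and on all 3 the groups did not overlap. With the spike covariate its difference was −0.07. Smad2, the close relative of Smad3, read 346, 881 and 861 in mesonephros-derived cells, against 991, 924 and 799.8 in ovary-derived cells. On this probe set only mesonephros-derived replicate 1 stood apart, and the difference of −0.48 ± 0.37 was −0.05 without it and 0.26 with the spike covariate. A second Smad2 probe set read 532, 348 and 972 in mesonephros-derived cells, against 903, 818 and 769 in ovary-derived cells. It stood at −0.54 with overlap, and there mesonephros-derived replicate 2 was the lowest array.

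The BMP SMADs differed little on the probe sets used. Smad1 read 2399.7, 2021 and 2843 in mesonephros-derived cells, against 2322, 2677 and 2235 in ovary-derived cells, overlapping, at 0.00 ± 0.20 with a 95% interval of −0.46 to 0.45, and stood at 0.07 with median centring. Further Smad1 probe sets stood at −0.30, and at −1.50 with a log mean below the floor, both with overlap. As the mean of its probe sets Smad1 stood at −0.60. Smad5 read 1855, 2167 and 2085 in mesonephros-derived cells, against 1905, 2222 and 1672 in ovary-derived cells, at 0.08 ± 0.20, but its 2 further probe sets stood at −0.60 and −0.45, the second without overlap. The inhibitory SMADs, which are switched on by the pathway and damp it, had no shared direction. Smad6, which acts mainly on BMP signals, read 99.4, 221 and 215 in mesonephros-derived cells, against 117, 154 and 119 in ovary-derived cells, at 0.35 ± 0.44, with ovary-derived signals near the floor and 0.17 without mesonephros-derived replicate 2. Smad7, which acts on TGF-beta and BMP receptors, read 279.6, 1141 and 759 in mesonephros-derived cells, against 1197, 816 and 339 in ovary-derived cells. Both groups spread widely, and the difference of −0.15 ± 0.58 became 0.41 without mesonephros-derived replicate 1. Its other probe set was at −0.83 without overlap. The nuclear repressors Ski and Skil, which bind SMADs and block transcription, stood at 0.14 ± 0.18 and 0.32 ± 0.22, both overlapping, with a second Skil probe set at −0.34.

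**Figure D4:**
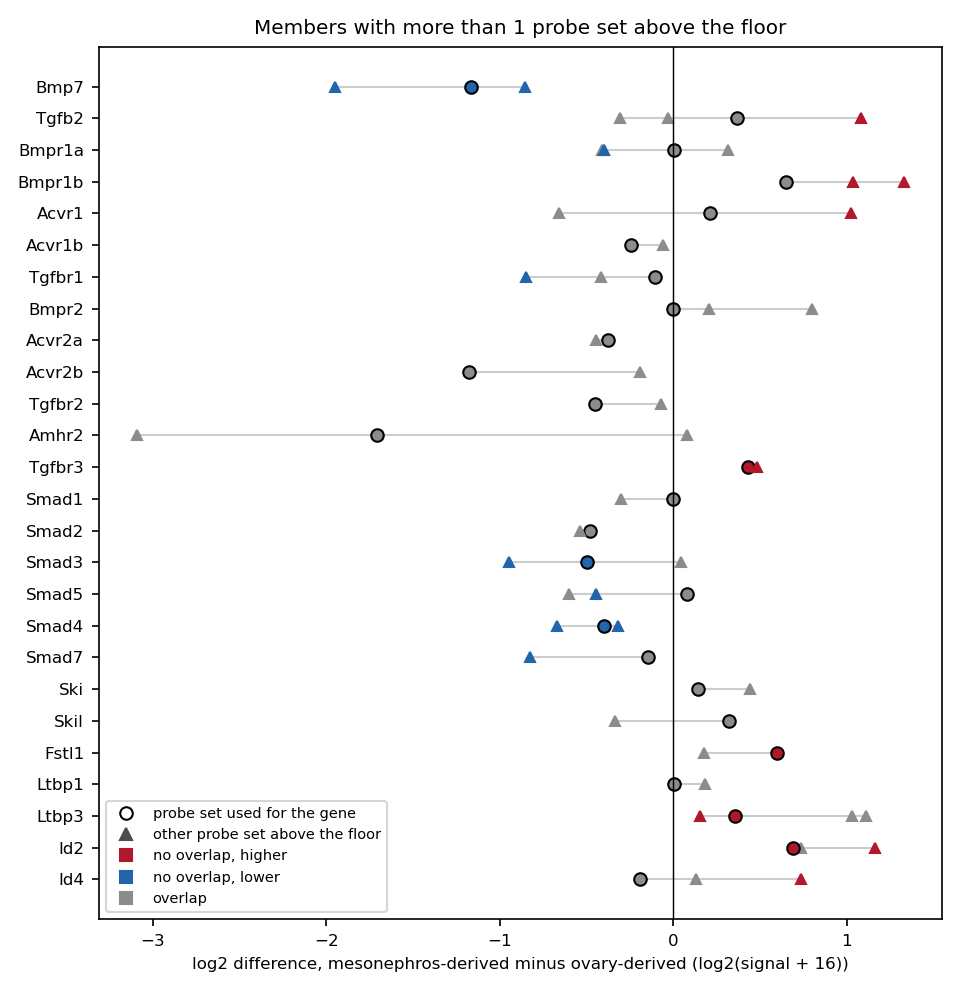
Log2 difference, mesonephros-derived minus ovary-derived (x axis), for every probe set above the floor of the 26 tested genes that have more than 1; circles are the probe sets used and triangles the others. For 17 of the 26 all probe sets lie on 1 side of 0, among them Bmp7, Bmpr1b, Tgfbr3, Smad4, Ltbp3 and Id2, and for 9 they lie on both sides.

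Secreted antagonists of BMPs were hardly measured. Noggin (Nog), chordin (Chrd) and gremlin (Grem1), which trap BMPs outside the cell, had signals of at most 97.3 on any array, below the floor. Follistatin (Fst), which traps activin, read 22.9, 191 and 73.9 in mesonephros-derived cells, against 104, 87.6 and 83.7 in ovary-derived cells. It crossed the floor only on mesonephros-derived replicate 2 and ovary-derived replicate 1. Fstl3, a follistatin relative that also binds activin, read 261, 139.6 and 379.6 in mesonephros-derived cells, against 378, 277 and 233 in ovary-derived cells, overlapping, at −0.25 ± 0.43, or 0.11 without mesonephros-derived replicate 2. Fstl1, a secreted glycoprotein with a follistatin domain that has been reported to bind BMP4, read 15461, 15477 and 12123 in mesonephros-derived cells, against 8881, 9832 and 9622 in ovary-derived cells. All mesonephros-derived arrays lay above all ovary-derived arrays. Its mean signal was 14354 ± 1932 in mesonephros-derived cells, against 9445 ± 499.5 in ovary-derived cells (SD, n = 3 each), 1.51-fold higher, and its log2 difference 0.60 ± 0.16 (SE, limma adjusted p = 0.246) had the smallest p of the 42 genes. It was 0.15 after quantile normalization and 0.21 with the spike covariate. A second Fstl1 probe set read 3306, 3531 and 3624 in mesonephros-derived cells, against 3045, 3311 and 2904 in ovary-derived cells, with overlap, at 0.18.

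Latent TGF-beta binding proteins, which tether inactive TGF-beta to the matrix, all had differences at or above 0. Ltbp3 read 9620.5, 8495 and 7679 in mesonephros-derived cells, against 6417, 6248 and 7450.2 in ovary-derived cells. The groups did not overlap, by a narrow margin, and the difference was 0.36 ± 0.17 (SE, limma adjusted p = 0.386). Its 3 further probe sets stood at 1.11, 1.03 and 0.15, the third without overlap. Ltbp4 read 6865, 4224 and 4207 in mesonephros-derived cells, against 2995, 3799 and 3675 in ovary-derived cells. Mesonephros-derived replicate 1 was the highest, and the difference of 0.51 ± 0.23 (limma adjusted p = 0.371) was 0.28 without it. Ltbp2, a relative that joins elastic fibres and does not bind latent TGF-beta, read 1273, 2155 and 669 in mesonephros-derived cells, against 550.5, 599 and 762 in ovary-derived cells. Replicates 1 and 2 lay above and replicate 3 within the ovary-derived range. Its difference of 0.94 ± 0.40 (limma adjusted p = 0.357) was 0.54 without mesonephros-derived replicate 2. Ltbp1 read 1037, 637 and 1654 in mesonephros-derived cells, against 1090.3, 1119 and 895 in ovary-derived cells, overlapping, at 0.00 ± 0.34. After quantile normalization Ltbp3 stood at 0.08, and with the spike covariate Ltbp2 turned to −0.55, Ltbp3 stood at 0.02 and Ltbp4 at 0.07. Smooth muscle and pericyte markers were higher on the same arrays, their list standing at 0.68, 1.09 and 0.91 log2 units in the order of the replicates, beside 0.63, 0.42 and 0.31 for the latent binding protein list.

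The Id genes encode helix-loop-helix proteins without a DNA-binding region, which hold back other transcription factors, and are direct targets of BMP SMADs. The GC-rich element GGCGCC, which reads the same on both strands, is known to be bound by BMP SMADs. The SMAD box is written CAGAC on this strand and appears as GTCTG when it lies on the other. Promoter windows from 250 bases before to 50 after the start were read from RefSeq (GRCm38.p6) for Id2, whose groups did not overlap, and for Id3 and Id4, whose groups overlapped on the probe sets used. Windows were present for 35 of the 49 genes. The sequences run 5′ to 3′ on the gene's strand, and capitals mark the GC-rich element and the SMAD box on either strand. Id2 lies at chr12:25096043-25096342, minus strand. Id3 lies at chr4:136143572-136143871, plus strand. Id4 lies at chr13:48260866-48261165, plus strand.
Id2: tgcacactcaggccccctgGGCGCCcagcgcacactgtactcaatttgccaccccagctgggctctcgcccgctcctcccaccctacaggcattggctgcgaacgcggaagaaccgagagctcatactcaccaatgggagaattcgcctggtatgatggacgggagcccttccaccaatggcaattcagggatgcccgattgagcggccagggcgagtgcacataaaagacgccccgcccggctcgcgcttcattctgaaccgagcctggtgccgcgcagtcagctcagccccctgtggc
Id3: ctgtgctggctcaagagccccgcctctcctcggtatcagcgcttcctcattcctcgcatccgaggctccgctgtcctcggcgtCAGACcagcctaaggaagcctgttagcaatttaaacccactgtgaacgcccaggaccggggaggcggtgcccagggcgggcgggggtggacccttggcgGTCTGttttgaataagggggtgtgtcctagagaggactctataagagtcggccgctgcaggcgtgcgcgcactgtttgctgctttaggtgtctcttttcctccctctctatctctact
Id4: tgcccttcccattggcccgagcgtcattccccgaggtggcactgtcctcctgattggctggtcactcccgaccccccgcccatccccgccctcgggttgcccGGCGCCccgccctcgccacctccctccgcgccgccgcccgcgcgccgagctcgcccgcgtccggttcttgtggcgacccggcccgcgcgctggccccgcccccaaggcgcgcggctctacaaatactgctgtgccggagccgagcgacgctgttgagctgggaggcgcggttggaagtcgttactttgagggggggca
The Id2 window holds 1 GGCGCC, starting 231 bases before the start, and the Id4 window 1, starting 148 bases before it. The Id3 window holds 0 of that element and 1 SMAD box on each strand, while the Id2 and Id4 windows hold 0 SMAD boxes. Over all 32851 windows in the table, 11.87% hold the GC-rich element and 49.59% the SMAD box on either strand. These matches describe letters and not bound sites.

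Id2 read 2969.8, 2008 and 2347 in mesonephros-derived cells, against 1604, 1470.1 and 1401 in ovary-derived cells. All mesonephros-derived arrays lay above all ovary-derived arrays. Its mean signal was 2441 ± 488 in mesonephros-derived cells, against 1492 ± 103 in ovary-derived cells (SD, n = 3 each), 1.61-fold higher, with a log2 difference of 0.69 ± 0.21 (SE, limma adjusted p = 0.27). Of its other probe sets, 1 read 505, 469 and 426 in mesonephros-derived cells, against 180.0, 151 and 288 in ovary-derived cells, without overlap, at 1.16, and the other stood at 0.73 with overlap on mesonephros-derived replicate 1. Id1, often used as a readout of BMP signalling, read 849, 836 and 455 in mesonephros-derived cells, against 643, 767 and 439.7 in ovary-derived cells, overlapping, at 0.19 ± 0.34, or −0.03 without ovary-derived replicate 3. Id3 read 3204, 4043 and 3098 in mesonephros-derived cells, against 3135, 3231 and 3530.0 in ovary-derived cells, at 0.06 ± 0.18 with a 95% interval of −0.36 to 0.47, and stood at −0.03 after quantile normalization. Id4 read 1994, 1201 and 852 in mesonephros-derived cells, against 1291, 1526 and 1564 in ovary-derived cells, at −0.19 ± 0.31, or 0.09 without mesonephros-derived replicate 3, with a dimmer probe set on the other side at 0.73 without overlap. Id2 was therefore the only one of the 4 without overlap on the probe set used.

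The mesonephros-derived replicates varied more among themselves than the ovary-derived ones. The median SD of log2(signal + 16) over the 42 genes was 0.55 within the mesonephros-derived group and 0.20 within the ovary-derived group, beside 0.48 and 0.21 over all genes tested. Replicate 1 carried the most extreme values, with Tgfb1, Amhr2 and Acvr2b at −3.35, −3.44 and −2.65 log2 units from the ovary-derived mean and Bmp5 at 3.27. This array also had the lowest macrophage list, at −2.90, the lowest endothelial list, at −1.23, and a Gapdh 3′ to 5′ ratio of 5.29. The differences of the 10 genes without overlap kept their sign under every alternative run, including each left-out array, with Gdf10 between −1.43 and −0.79, Bmp7 between −1.45 and −0.92, and Smad3 between −0.56 and −0.41 when 1 array was left out. Since they were picked as non-overlapping on these arrays, this is a description. Of all 42 genes, 24 turned sign under at least 1 alternative, 15 of them with the spike covariate. That covariate also enlarged some differences: Bmpr1b went from 0.65 to 2.00, Bmp6 from 0.64 to 2.08 and Bmp7 from −1.17 to −1.90. As the spikes separate the groups, these estimates cannot be read as corrected differences.

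**Figure D5:**
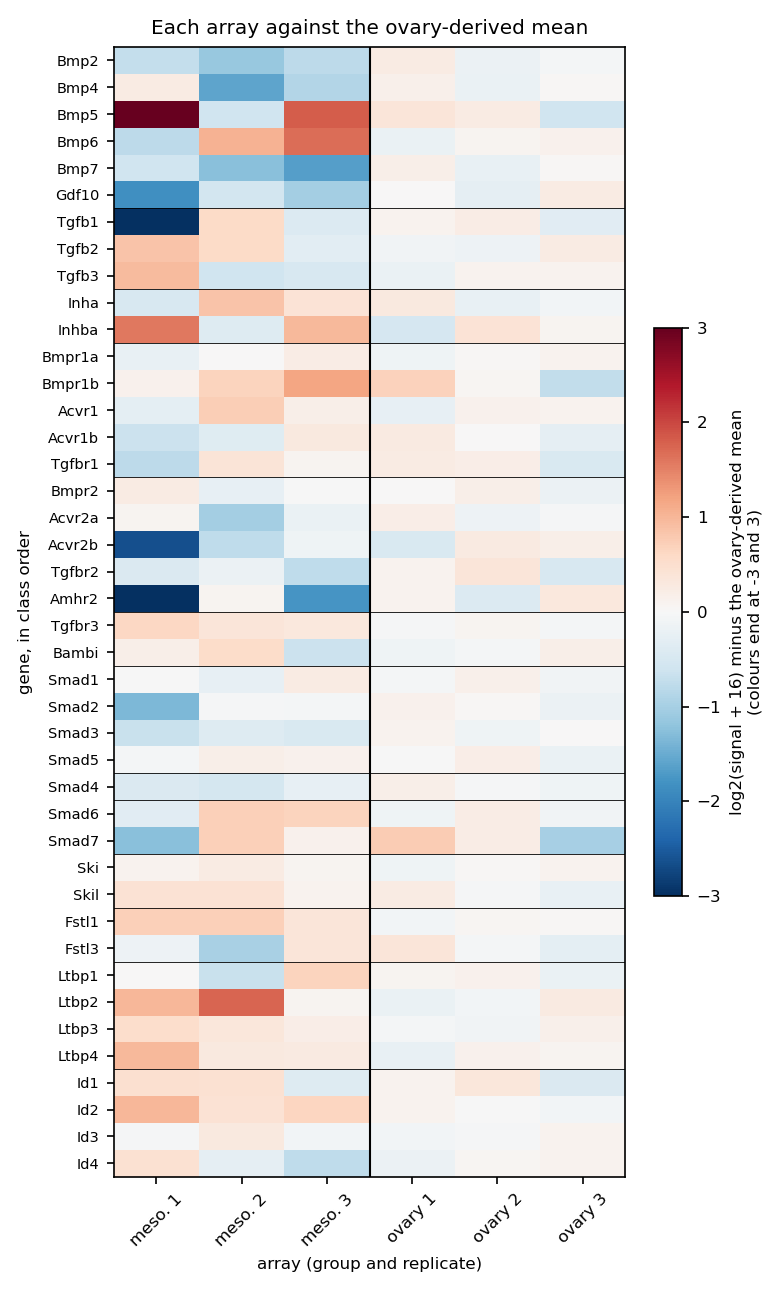
Log2(signal + 16) of each of the 42 tested genes on each array minus the mean of the 3 ovary-derived arrays (colour, ending at −3 and 3), genes in class order and mesonephros-derived arrays on the left. Replicate 1 of the mesonephros-derived group holds the darkest cells, Tgfb1, Amhr2, Acvr2b and Bmp5, and the ovary-derived arrays stay pale for most genes.

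Other genes of the pathway were read from 6 lists. Of 121 genes listed 69 were tested, 40 above and 29 below 0, with 1 past the adjusted threshold, 15 at an unadjusted p of 0.05 (13.7% of all genes) and a median of 0.08. Among 17 tested extracellular regulators 11 stood above 0. Without overlap, 5 were higher and 1 lower (35.3% of the list, against 22.2% of all genes), a count that includes Chrdl1. Chrdl1, a secreted BMP antagonist of the chordin family, read 157, 579 and 565 in mesonephros-derived cells, against 31.5, 52.8 and 31.6 in ovary-derived cells, without overlap and with every ovary-derived array below the floor. Its level was at least 3.39-fold higher on the mesonephros-derived arrays than on the ovary-derived ones taken at the floor (limma adjusted p = 0.149). Chrdl1 passed the floor only through its mesonephros-derived signals, so its p-value and lack of overlap are a description. Kcp, a chordin-like modulator of BMP and TGF-beta signals, stood at 0.81 ± 0.21, and Htra3, a secreted protease, at 0.53 ± 0.19, both without overlap. Fbn2, a fibrillin of the matrix that holds latent complexes, read 2335, 4152 and 4382 in mesonephros-derived cells, against 5607, 5202 and 5808 in ovary-derived cells and stood at −0.66 ± 0.25, without overlap. These 4 had limma adjusted p-values of 0.149 to 0.319.

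Among 25 tested intracellular regulators 9 stood above and 16 below 0, where 56.5% of all genes stand below. The groups did not overlap for 24% of this list, near the 22.2% of all genes. Tgif1, a corepressor that binds SMAD2 and SMAD3, read 781, 747 and 878 in mesonephros-derived cells, against 1174, 1259 and 1202 in ovary-derived cells, without overlap, at −0.59 ± 0.22. Tob1, a repressor of BMP SMADs, stood at −0.66 ± 0.30 and the coactivator Ep300 at −0.56 ± 0.27, both lower without overlap, and Tab2, an adaptor of the kinase TAK1, at 0.42 ± 0.19 without overlap. None of these 4 passed the adjusted threshold (0.316 to 0.396). Of 20 further ligands only 3 were tested, with Bmp1, which is a procollagen protease and not a BMP, at 0.60 ± 0.26, Lefty2 at 0.83 ± 0.53 and Nodal at 0.60 ± 0.46. The oocyte ligands Gdf9 and Bmp15 had signals of at most 75.7 and 45.8, below the floor. Of 8 further receptors 4 were tested: Acvrl1 stood at 0.56 ± 0.47, Rgmb at −0.28 ± 0.45, Rgma at 0.26 ± 0.43 and Eng at 0.16 ± 0.45, all overlapping.

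Genes known as TGF-beta targets stood mostly on the higher side, 12 of 15 tested (43.5% of all genes stand there), with 7 at an unadjusted p of 0.05 (13.7% of all genes), 1 past the adjusted threshold (0.0427%) and a median of 0.54, beside −0.08 over all genes. The 1 was Tagln, which encodes the smooth muscle protein transgelin and read 6660.0, 6314 and 6977 in mesonephros-derived cells, against 2328, 2328 and 2484 in ovary-derived cells (a difference of 1.48 ± 0.16, limma adjusted p = 0.0341). Acta2, smooth muscle actin, stood at 1.23 ± 0.19 (limma adjusted p = 0.0865), and the collagen I genes Col1a1 and Col1a2 at 1.00 ± 0.23 and 0.84 ± 0.24, all 3 without overlap and none past the threshold. Tgfbi, whose name comes from its induction by TGF-beta, read 1939, 2551 and 2481 in mesonephros-derived cells, against 2342, 2677 and 1771 in ovary-derived cells and stood at 0.05 ± 0.22. Tagln and Acta2 are also smooth muscle markers, all 17 of which stood above 0. Of 15 further genes listed as BMP targets 5 were tested, 2 above and 3 below 0. Tgfb1i1, which is known for its induction by TGF-beta and whose place in that list is uncertain, stood at 0.57 ± 0.23. Gata6 stood at −0.78 ± 0.44, Atoh8 at −1.01 ± 0.91 and Gata2 at −0.09 ± 0.41, and all of these genes overlapped between the groups.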

How the data were processed

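The deposited values are linear probe set intensities; the submitters' processing notes name MAS5. Its version is not given in the sources used here. Trimmed by 2% at each end, the mean signal was 500 on all 6 arrays as deposited, and no further normalization was applied. Of 45101 probe sets, 64 controls were left out. Of the rest, 34945 had 1 symbol, 932 several and 9160 were unnamed here. No detection calls were used: the floor stood in for them.

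Signals were moved to log2(signal + 16), a scale that understates changes of dim genes. Each gene took its probe set with the highest mean on that log scale, and genes with a log mean below the 40th percentile were not tested. Differences between groups came from limma 3.58.1 under R 4.3.3 (lmFit, eBayes with trend), with Benjamini-Hochberg adjustment over all 11703 genes, after testing on simulated data. Differences are mesonephros-derived minus ovary-derived, ± SE from that fit. Precision is limited by having 3 arrays in each group.

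The members and gene lists were chosen with earlier results of these data known. All 49 genes are named. Full values are given where the unadjusted p was under 0.05 or the groups did not overlap, and for genes set beside those; other pathway lists name up to 4 genes of smallest p, and Tgfbi, Gdf9, Bmp15, Alas2, Fshr, Foxl2, Esr2, Hsd17b1, Gja1, Kitl and Nr5a2 were added after their values were seen. No 2 arrays held identical values. Alternatives were the pseudocount, the floor, the normalization, the choice of probe set, the variance model, array weights, the replicate block, a covariate from the poly-A spikes and leaving out each array. Picking probe sets and the floor by mean linear signal was added after seeing the data.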

Additional observations from a re-analysis of the deposited data

How the results depend on the processing

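No gene of the family reached an adjusted p of 0.05 under any of the 21 alternatives run with limma, and the smallest was 0.0858 for Fstl1, without mesonephros-derived replicate 3. The number reaching an unadjusted p of 0.05, 8 of 42 in the report, was 14 of 40 when probe sets of a gene were averaged (35%, against 14.1% of all genes), 21 of 86 with all probe sets (24.4%, against 12.9%), 5 with eBayes without the trend (11.9%, against 12.9%) and 3 with the poly-A spike covariate (7.14%, against 2.69%), and 3 to 14 when 1 array was left out (7.14% to 33.3%, against 5.45% to 20.7%). Non-overlapping genes, 10 in the report, were 12 to 18 with 1 array left out, where fewer arrays make overlap rarer, and 27 of 86 with all probe sets. The shares over all genes were not counted in these settings, so a rise in the family cannot be told from a rise over all genes. The median difference of the family moved to 0.10 with the poly-A spike covariate and ranged from −0.025 to 0.093 with 1 array left out. Over all genes, the 5 calls became 3 with a pseudocount of 1, 2 with median centring, 8 with averaged probe sets, 129 with array weights, 0 without the trend (1504 at an unadjusted p of 0.05) and 0 with the spike covariate (315), and 0 to 46 with 1 array left out (46 without mesonephros-derived replicate 1, 3 without its replicate 2, and 0 without its replicate 3, with 2432 at an unadjusted p of 0.05, or without any ovary-derived array, with 638 to 962). The cause was not tested. Of the 42 genes, 18 kept their sign under every alternative run for them. Deviations from the group means correlated at 0.00, 0.07 and −0.01 between same-numbered arrays, so no shared effect of the replicate number was seen. With 3 arrays in each group this cannot show whether the samples were paired. With the replicate block 4 genes were called over all genes and 0 in the family. In that fit 7 of the family reached an unadjusted p of 0.05 (16.7%, against 11.8% of all genes).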
